A study of Mus musculus with 2 samples.

Results

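The genes described here make the lipids of the epidermal water barrier or make, store and break down neutral lipids such as triglycerides. They are 40 genes named by symbol, of 16593 genes measured on the arrays, and 36 of them had a probe named in the platform annotation (54 probes in all). The 4 without a named probe were Cers3, Soat1, Awat1 and Acsl1, and they are not analysed here.

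Cultured epithelial cells of the mouse incisor were compared on Illumina bead arrays, with 1 array for Med1 fl/fl control mice and 1 for littermates carrying Med1 fl/fl with Krt14 driven Cre. The labels call the cells dental epithelial stem cells and also keratinocytes. Both genotypes are of strain C57/BL6 and were 3 months old, and the cells came from the labial cervical loop, the niche of dental epithelial stem cells in the lower incisor. They were plated sparsely and grown for 7 days, unpassaged, with epidermal and fibroblast growth factors. Cre under the keratin 14 promoter acts in all epithelium that expresses keratin 14, not in stem cells alone, and the floxed allele is shared by both genotypes. Each genotype is represented by cells of 3 mice and a single array. Whether their RNA was pooled is not stated outright. There was therefore no replicate, no standard deviation between samples and no test of genotype, and the number of arrays limits the precision.

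In the epidermis, keratinocytes leaving the basal layer lengthen fatty acids with elongases, join them to sphingoid bases with ceramide synthases, and load the products as glucosylceramides into lamellar granules through the transporter Abca12. The lipoxygenases Alox12b and Aloxe3 then oxidise the linoleate of acylceramides so that these lipids can be bound to the cornified envelope, and loss of either enzyme causes ichthyosis in humans. Neutral lipids are made by acyltransferases such as Dgat2, are stored in droplets coated by perilipins and Cide proteins, and are released by the lipases Pnpla2 and Mgll. Linoleate carried through this store is a source for acylceramides, and the sebaceous gland uses many of the same enzymes to make sebum.

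On the knockout array, the higher members included Alox12b, a lipoxygenase of the barrier, Elovl4, an elongase of ultra-long chains, Dgat2, a triglyceride-making enzyme, and Fabp5, a fatty acid carrier. Alox12, which encodes another 12-lipoxygenase, and Mgll, which encodes the monoacylglycerol lipase, were lower. Most of the other detected members differed by less than 2-fold. A probe counted as detected at a deposited detection p-value under 0.01, a comparison with that array's negative control beads. Values are log2 intensities after background correction and quantile normalization, each gene is read by its brightest probe, and a difference is the knockout value minus the control value. Where a gene was detected on 1 array only, its fold is a lower bound, written "at least". It was taken against the lowest detected value of the other array (6.30 on the control array, 6.37 on the knockout array) or the dim probe's own value, whichever was higher. Such a bound holds under this processing only, and folds without background correction can fall below it.

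The 250 bases before the transcription start of 3 members are shown because Alox12b and Elovl4 had the largest positive differences, Alox12 was past 2-fold lower in all 9 settings in which its difference was computed, and all have an entry in the RefSeq promoter table (build GRCm38.p6). Elovl4 lies on the minus strand of chromosome 9 (chr9:83806306-83806555), Alox12b on the plus strand of chromosome 11 (chr11:69156822-69157071) and Alox12 on the minus strand of the same chromosome (chr11:70255371-70255620). Sequences are written from 5′ to 3′ on the strand of the gene, and capitals mark GC boxes, GGGCGG or CCGCCC on the other strand, which are letters bound by Sp and Klf family factors.
Elovl4: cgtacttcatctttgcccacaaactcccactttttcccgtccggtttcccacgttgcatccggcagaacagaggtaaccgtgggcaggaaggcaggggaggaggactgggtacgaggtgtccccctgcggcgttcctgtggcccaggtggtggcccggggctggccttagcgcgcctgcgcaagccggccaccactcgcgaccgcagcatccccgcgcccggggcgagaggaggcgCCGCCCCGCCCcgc
Alox12b: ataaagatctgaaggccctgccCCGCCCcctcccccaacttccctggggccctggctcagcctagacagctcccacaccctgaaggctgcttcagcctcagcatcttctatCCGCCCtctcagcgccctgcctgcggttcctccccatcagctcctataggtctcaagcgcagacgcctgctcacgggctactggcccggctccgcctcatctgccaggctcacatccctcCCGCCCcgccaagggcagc
Alox12: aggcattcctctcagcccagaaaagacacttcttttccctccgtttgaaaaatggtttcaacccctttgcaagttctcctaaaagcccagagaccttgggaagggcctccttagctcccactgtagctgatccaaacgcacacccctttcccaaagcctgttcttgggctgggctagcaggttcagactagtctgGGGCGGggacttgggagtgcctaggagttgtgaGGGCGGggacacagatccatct
There were 2 GC boxes in the Elovl4 window, which overlap by a base, 3 in the Alox12b window and 2 in the Alox12 window. On either strand, 32.7% of 32851 windows of this length held a GC box, and this motif was picked after the sequences were seen. None of the 3 windows held AGGTCA, the hexamer core bound by nuclear receptors (14.0% of all windows), TGANTCA, the AP-1 motif (6.7%), AACCNGTT, a grainyhead-like motif (1.8%), or TATAAA (12.4%). The GC box was thus present, and the other 4 motifs absent, in the windows of the higher Elovl4 and Alox12b and of the lower Alox12 alike.

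By its brightest probe Med1 read 9.52 in the control and 8.03 in the knockout, 2.81-fold lower. Nothing here says whether this probe lies in the deleted part of the gene. A dimmer Med1 probe differed by -0.28 (6.84 against 6.56), and 2 more were not detected. Between 42.6% and 43.1% of 25697 probes were detected on each array. All 7 measured basal keratinocyte markers were detected on both arrays, led by Krt14 (15.23 and 15.13), Itgb4 (14.32 and 13.90) and Krt5 (14.46 and 13.24). Past 2-fold in this list were Krt15, 4.81-fold higher, and Itga6 and Krt5, 4.26-fold and 2.33-fold lower. Of 5 measured ameloblast markers, Amelx, Enam, Mmp20 and Klk4 were not detected on either array, and Ambn was detected in the knockout only (6.29 and 9.31), at least 8.02-fold higher, or 3.35-fold without background correction. Sex-linked genes moved with genotype: Xist, seen in the knockout alone, was at least 37.9-fold higher, while the Y-linked Eif2s3y was 3.03-fold and Kdm5d 2.77-fold lower. Without background correction these folds were 18.5, 2.68 and 1.84. Sex makeup and genotype cannot be told apart here.

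**Figure D1:**
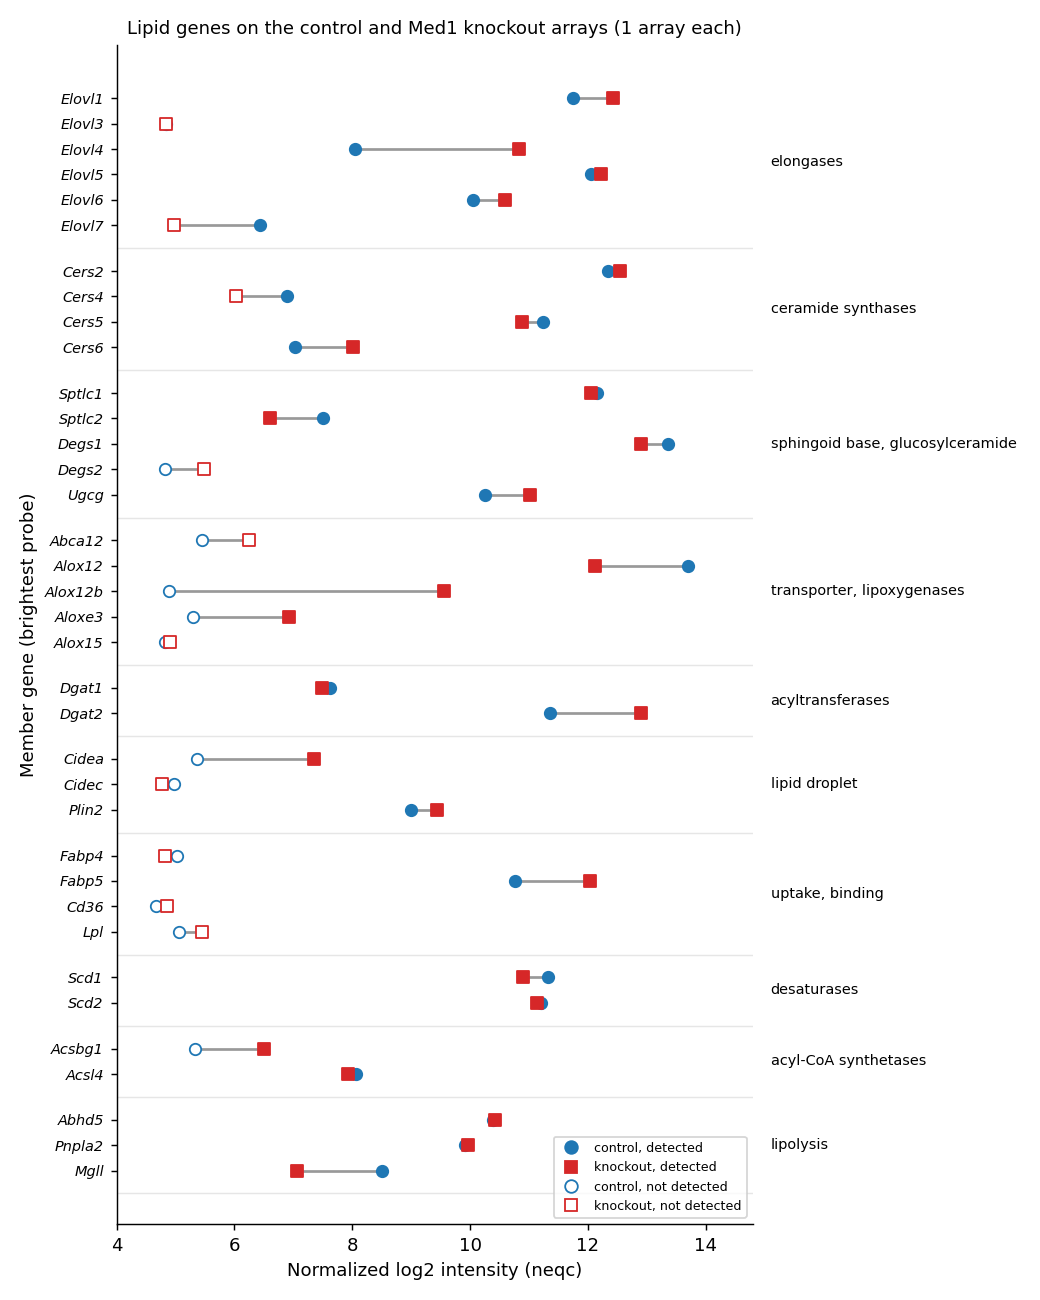
Normalized log2 intensity of the 36 measured members on the control array (circles) and the knockout array (squares), 1 array each, grouped by role; open symbols were not detected. Alox12b and Elovl4 show the widest gaps, and 8 members have open symbols on both arrays.

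Of the 36 measured members, 28 were detected, 22 of them on both arrays, 4 on the knockout array only and 2 on the control array only. Counting measured differences, 7 of the 28 (25.0%) passed 2-fold upwards in the knockout, against 8.35% of all 8217 detected genes. Another 3 of 28 (10.7%) passed it downwards, against 6.52% of all detected genes. The median difference of the detected members was 0.11, and that of all detected genes was -0.06. Of the 7 higher members, 4 (Alox12b, Aloxe3, Cidea and Acsbg1) passed the detection filter through the knockout array alone, where they are high, so the share of higher members supports no statement about the group. With detection required on both arrays, 3 members were higher and 2 lower. No share of all genes is given under that filter, so these counts have no comparison. The members' median lay near 0, with 16 positive and 12 negative differences. On the same arrays 7 of 7 detected suprabasal keratinocyte markers and 7 of 8 detected mesenchymal markers were past 2-fold upwards. Of these detected markers, 2 suprabasal and 6 mesenchymal ones were seen on the knockout array only, so the same limit holds for their shares. The part of such cells in the members' differences was not tested.

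These counts depend on how dim probes are treated. With lower bounds for genes seen on 1 array, 5 members were higher (6.86% of all genes) and 2 lower (4.98%). Without background correction 4 were higher, Elovl4, Alox12b, Dgat2 and Fabp5, against 4.15% of all genes, and 1 was lower, Alox12, against 2.52%. The same genes passed when both treatments were required, against 4.15% of all genes higher and 2.51% lower. Alox12b, and Cidea among the lower bounds, were detected on the knockout array only, so these shares also support no statement about the group. The members' median was 0.10 without the correction. The only spread that could be measured was that between probes of a gene. Over 1830 genes with at least 2 probes seen on each array, the pooled between-probe standard deviation of the differences was 0.31. It was 0.34 over the 270 genes with a mean log2 intensity under 8. The median standard deviation per gene was smaller, 0.16, and the pooled 0.31 is the probe spread used here. By this measure 8 of the 28 detected members differed by less than the probe spread, and 10 more lay beyond it but under 2-fold. The probe spread comes from the same 2 arrays and holds no variation between mice, cultures or arrays. A difference beyond it may still lie within that variation.

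**Figure D2:**
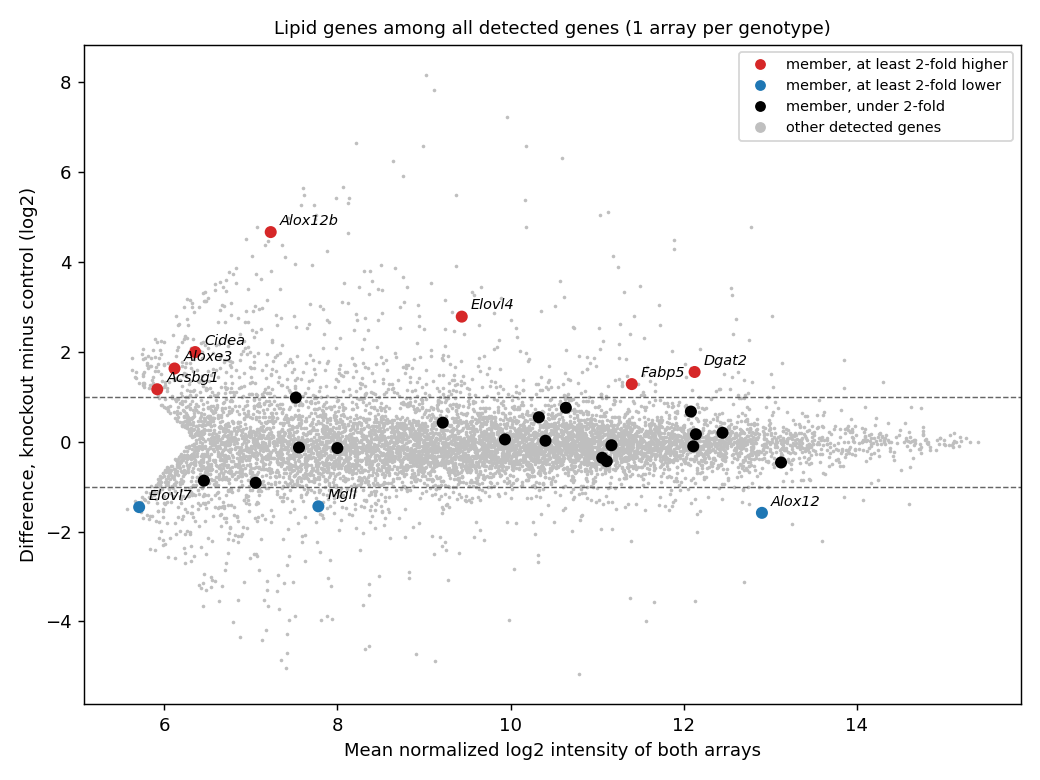
Difference, knockout minus control on the log2 scale, against the mean log2 intensity of both arrays for 8217 detected genes (grey) and 28 detected members (coloured), with dashed lines at 2-fold. Elovl4, Dgat2, Fabp5 and Alox12 lie past the lines away from the dim edge of the plot, while Elovl7, Acsbg1, Aloxe3 and Cidea lie at that edge.

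Among the elongases, which add carbon units to fatty acyl chains in the endoplasmic reticulum, Elovl4 stood apart. Elovl4, which makes the ultra-long acyl chains of acylceramides, read 8.04 in the control and 10.83 in the knockout. It was detected on both and was 6.90-fold higher in the knockout, or 4.69-fold without background correction. Its difference of 2.79 ranked 128 from the top among the 8217 detected genes. Elovl1, which extends saturated chains to very long lengths, read 11.75 and 12.42, a difference of 0.67. All 4 Elovl1 probes were detected, with differences from 0.37 to 0.74. Elovl6, which extends palmitate to stearate, differed by 0.55 (10.05 and 10.60). Elovl5, which extends polyunsaturated chains, differed by 0.17 (12.06 and 12.23), inside the probe spread. The elongases seen on both arrays were thus all on the positive side, with Elovl4 alone past 2-fold.

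Elovl7, an elongase of saturated chains, read 6.44 on the control array, just above the detection limit, and 4.98 on the knockout array, where it was not detected. Its measured difference was -1.45, but the bound is at least 1.05-fold lower, so its place among the lower members rests on values below detection. Elovl3, the elongase of sebaceous gland, hair follicle and brown fat, was not detected on either array (4.84 and 4.85).

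Of the ceramide synthases, 0 of 4 detected passed 2-fold, against 14.9% of all detected genes in either direction, so the count says little for a family of this size. Cers2, which joins very long acyl chains, read 12.35 and 12.55, a difference of 0.20, and its other probes gave 0.45 and 0.51. Cers6, which makes ceramides with palmitate, read 7.03 and 8.01, and its difference of 0.98 was the closest of any member below the 2-fold limit. Its further probes were not detected on either array and differed by 0.08 and -0.10. Without background correction the Cers6 difference was 0.53. Cers5, of similar chain preference, differed by -0.36 (11.24 and 10.88). Cers4 was detected on the control array only (6.89 against 6.03) and was at least 1.44-fold lower. A further Cers4 probe of near-equal brightness was also detected on the control array only (6.95 and 5.52), a difference of -1.43. By the mean of its detected probes Cers4 differed by -1.15, past 2-fold, so the count of 0 depends on the probe rule. The family therefore holds 1 member close to 2-fold higher and 1 on the lower side, and both had smaller differences without background correction.

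Among genes that make the sphingoid base and its glucosylated product, 0 of 4 detected passed 2-fold, likewise against 14.9% of all detected genes. Ugcg, the glucosylceramide synthase that prepares ceramides for the lamellar granule, read 10.26 and 11.02, a difference of 0.76 that exceeded the probe spread. The subunits of serine palmitoyltransferase, the entry enzyme of sphingolipid synthesis, differed unequally. Sptlc1 was at -0.10 (12.16 and 12.06), while Sptlc2 was at -0.91 (7.51 and 6.60), or -0.42 without background correction. Degs1, the desaturase that turns dihydroceramide into ceramide, was at -0.46 (13.36 and 12.89). Degs2, which makes the hydroxylated phytoceramides of skin, was not detected (4.82 and 5.48). Of the detected genes in this group, Ugcg alone had a positive difference beyond the probe spread.

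The lipoxygenases differed in both directions. Alox12b, the epidermal 12R-lipoxygenase, had a signal of 169 in the control, not above its negative controls, and 894 in the knockout. As log2 values it read 4.90 and 9.56, so it was detected on the knockout array only and was at least 9.59-fold higher. Without background correction the fold was 5.37. Ranked by the bound, Alox12b stood 56 from the top of all detected genes. Aloxe3, the hydroperoxide isomerase that acts on the product of Alox12b, was likewise seen on the knockout array only (5.30 and 6.93), at least 1.55-fold higher. The genes of this enzyme pair are next to each other on chromosome 11. Both were thus undetected on the control array and detected on the knockout array, with Aloxe3 much closer to the detection limit.

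Alox12, the platelet-type 12S-lipoxygenase, which is also expressed in epidermal keratinocytes of mice, went the other way. Its signal was 12926 in the control and 4615 in the knockout, or 13.70 and 12.11 as log2 values. It was 2.99-fold lower, and 2.92-fold without background correction, so this difference hardly depends on how dim signal is handled. A dimmer Alox12 probe, detected on the control array only, differed by -0.91. Alox15, the 12/15-lipoxygenase of leukocytes, was not detected on either array by either of its probes. The 4 other genes of the pathway, Alox5, Alox5ap, Alox8 and Alox12e, were not detected either.

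Abca12, the lamellar granule lipid transporter, fell short of detection on both arrays. Its brighter probe read 5.45 and 6.25, with a detection p-value on the knockout array of 0.0125 against the limit of 0.01. Its difference of 0.81 therefore rests on values not above background.

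Among the acyltransferases, the detected pair differed from each other. Dgat2, which completes triglyceride synthesis at the endoplasmic reticulum and the droplet, read 11.35 and 12.90 and was 2.94-fold higher in the knockout. Without background correction Dgat2 was 2.82-fold higher. Dgat1, an unrelated protein that catalyses the same step, read 7.62 and 7.49, a difference of -0.13 inside the probe spread.

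Of the droplet genes, Plin2, the coat protein found on droplets of most cells, differed by 0.43 (9.00 and 9.43). Cidea, a droplet fusion protein of brown fat and sebaceous gland, was not detected on the control array (5.36) and was detected on the knockout array (7.36), at least 2.07-fold higher. Without background correction its fold was 1.66. Cidec, the related protein of white fat, was not detected (4.97 and 4.78).

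Of 4 genes for fatty acid uptake and binding, Fabp5 alone was detected. Fabp5, the fatty acid binding protein of epidermis, read 10.76 and 12.04 and was 2.44-fold higher in the knockout, or 2.32-fold without background correction. Its dimmer probe was not detected on either array. Fabp4, the adipocyte and macrophage form (5.02 and 4.81), Cd36, a fatty acid translocase (4.67 and 4.85), and Lpl, lipoprotein lipase (5.07 and 5.45), were not detected on either array. These undetected genes are typical of fat cells, endothelium and macrophages, whose other markers were also few, as given further on.

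The stearoyl-CoA desaturases, which put the double bond into oleate, were detected on both arrays and differed little. Scd1 was at -0.43 (11.33 and 10.90) and Scd2 at -0.08 (11.20 and 11.13). Acsl4, the acyl-CoA synthetase that prefers arachidonate, gave opposite signs by probe. The brighter Acsl4 probe, annotated to another RefSeq transcript than the dimmer one, read 8.07 and 7.93, a difference of -0.14, while the dimmer one read 6.92 and 7.73, a difference of 0.81. It was the single member of 6 with several detected probes whose probes did not share a sign. Acsbg1, a synthetase for very long chains, was detected on the knockout array only (5.33 and 6.50) and was at least 1.15-fold higher. Its 2-fold call, like that of Elovl7, rests on a value below detection.

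Of the lipolysis genes, Mgll was lower while the triglyceride lipase and its partner were level. Mgll, which splits monoacylglycerol into glycerol and fatty acid, read 8.50 and 7.06 and was 2.71-fold lower, or 1.78-fold without background correction. A second detected Mgll probe differed by -1.01. Pnpla2, the triglyceride lipase ATGL, differed by 0.05 (9.91 and 9.96). Abhd5, its activator, also known as CGI-58 and required for acylceramide synthesis, differed by 0.02 (10.39 and 10.42). Both lay well inside the probe spread.

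**Figure D3:**
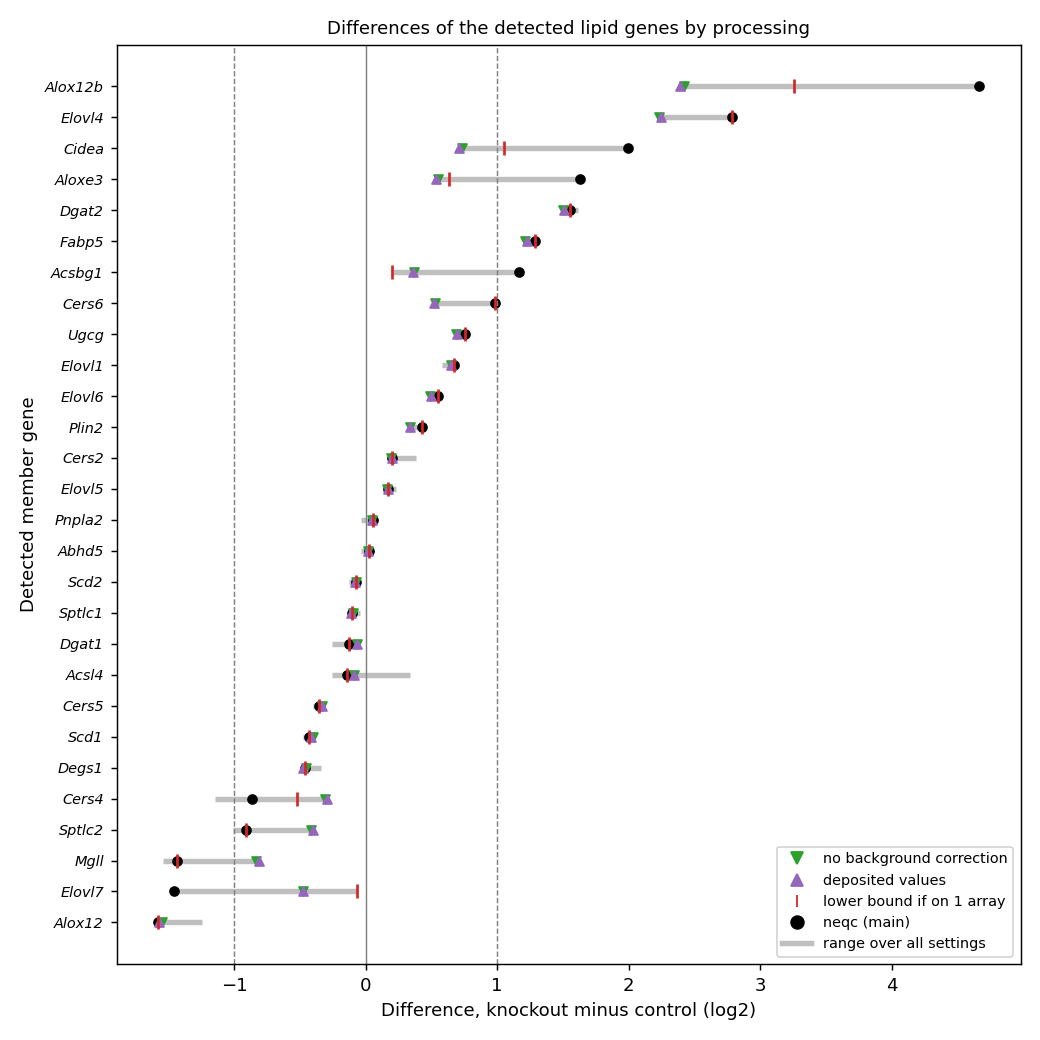
Difference, knockout minus control on the log2 scale, of the 28 detected members after neqc (black), without background correction, in the deposited values and as a lower bound, with the range over 9 settings in grey. Elovl4, Dgat2, Fabp5, Alox12b and Alox12 lie past 2-fold in all of them, whereas Mgll, Elovl7, Acsbg1, Aloxe3 and Cidea move below 2-fold in at least 1.

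Split by pathway, the barrier lipid genes had 16 detected members, of which 3 passed 2-fold upwards and 2 downwards, against 8.35% and 6.52% of all detected genes, and their median difference was 0.18. Of 12 detected neutral lipid and fatty acid members, 4 passed 2-fold upwards and 1 downwards, and the median was 0.04. These counts are too small to set the subsets apart. Alox12b and Aloxe3 in the barrier subset, and Cidea and Acsbg1 in the other, passed the detection filter through the knockout array alone. The shares of higher genes therefore support no statement about either subset. In each subset, 2 genes were higher both with and without background correction, against 4.15% of all genes. For the barrier subset these were Elovl4 and Alox12b, and for the neutral lipid subset Dgat2 and Fabp5.

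The other genes of these pathways were counted in 7 lists. Together 63 of 105 measured genes were detected. Among these, 7 passed 2-fold upwards and 3 downwards, 11.1% and 4.76% of the detected ones, which is near the 8.35% and 6.52% of all detected genes. Their median difference was -0.04. With lower bounds 6 were higher (6.86% of all genes), and without background correction 4 (4.15% of all genes). Of the higher genes, Sdr9c7, Lpin3 and Fabp6 passed the detection filter through the knockout array alone. The shares of higher genes therefore support no statement about a list. In the list of acylceramide and lipid envelope genes, 4 of 14 detected passed 2-fold upwards, against 8.35% of all detected genes. These were Lipk, an epidermal acid lipase (7.94 and 11.21, 9.61-fold), Cyp4f39, the hydroxylase of ultra-long chains (9.10 and 11.11, 4.03-fold), Tgm1, the transglutaminase of the cornified envelope (10.32 and 12.19, 3.65-fold), and Sdr9c7, a dehydrogenase acting on the product of Aloxe3. Sdr9c7 was detected on the knockout array only (4.82 and 7.83), at least 2.88-fold higher. All 4 passed 2-fold without background correction too. Abcg1, a sterol exporter, was lower, detected on the control array only (7.81 and 5.66, at least 2.72-fold), and 1.85-fold lower without background correction, under the 2-fold limit. Cyp4f39 and Sdr9c7, which act on products of Elovl4 and Aloxe3, were higher on the same array as those members, Aloxe3 by a bound of 1.55-fold only. A link between these genes was not tested. The other 9 detected genes of this list stayed under 2-fold. Among them Pnpla1 differed by -0.35 (7.17 and 6.82) and Slc27a4 by 0.25 (9.30 and 9.54), and Nipal4 was not detected.

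In the sphingolipid list, 0 of 16 detected genes were past 2-fold, against 14.9% of all detected genes in either direction. With so few genes this count says little. The differences ran from -0.41 to 0.95, the highest being that of the sphingomyelin synthase Sgms2 (7.78 and 8.73). Among neutral lipid synthesis and droplet genes, 1 of 11 detected was higher, Lpin3, a phosphatidate phosphatase (5.89 and 7.97, at least 3.19-fold), or 1.89-fold without background correction, which ends the call. Of 3 detected lipases, Lipa, the lysosomal acid lipase, read 9.92 on the control array and was not detected on the knockout array (4.89). It was at least 11.7-fold lower, or 6.64-fold without background correction. Of 10 detected uptake, activation and desaturation genes, Fabp6 alone passed 2-fold by its measured difference, and its bound was at least 1.41-fold higher. Of 9 detected regulators, Rxra, the partner of lipid-sensing nuclear receptors, was 2.13-fold higher (7.78 and 8.87), but 1.66-fold without background correction. Srebf1, the regulator of fatty acid synthesis, was 3.15-fold lower (9.23 and 7.57), and 2.18-fold without it. Pparg differed by 0.45 (8.24 and 8.69), and Ppara and Ppard were not detected.

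**Figure D4:**
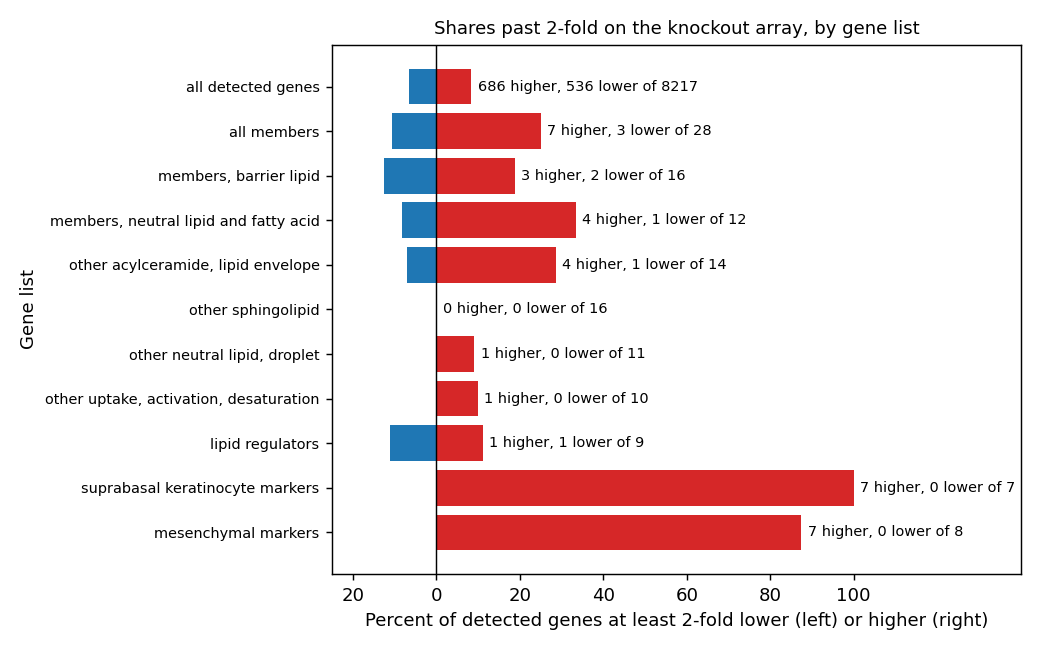
Percent of the detected genes of each list past 2-fold in the knockout, higher to the right (red) or lower to the left (blue), with the counts beside each bar. Higher were 7 of 28 members, 4 of 14 other acylceramide genes, 7 of 7 suprabasal and 7 of 8 mesenchymal markers, beside 8.35% of all detected genes. In these lists 4, 1, 2 and 6 genes were detected on the knockout array only, where they are high. The shares therefore support no statement about a list.

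Markers of other cell states and types moved with the same arrays. Of 9 measured suprabasal keratinocyte markers, 7 were detected, each past 2-fold upwards in the knockout, against 8.35% of all detected genes. Ivl and Calm4 among them were detected on the knockout array only, so the count supports no statement about the list. The summed signal of the list was 4036 in the control and 48817 in the knockout. The detected markers included Krtdap (9.75 and 14.04), Lor (8.50 and 13.56) and Krt10 (9.97 and 11.36), while Krt1 and Tgm3 were not detected. Of 12 mesenchymal markers, 8 were detected and 7 were higher, against 8.35% of all detected genes. The same limit holds, as 6 were seen on the knockout array only. Their summed signal was 3447 and 8621. With lower bounds 5 mesenchymal markers were higher (6.86% of all genes), and without background correction also 5 (4.15% of all genes). Among the detected ones Thy1 read 5.24 and 10.28, Mmp2 7.88 and 11.22, and Col6a1 9.97 and 10.25, while Col1a2, Pdgfra, Pdgfrb and Prrx1 were not detected. In bulk RNA more cells of a type and more RNA per cell cannot be told apart.

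Fat, gland, vessel and macrophage markers were mostly undetected. Of 8 adipocyte markers, 2 were detected, Pparg on both arrays and Car3 on the control array only (7.59 and 4.89, at least 2.33-fold lower). Adipoq, Plin1, Plin4, Lep, Retn and Lipe were not detected. Of 6 sebocyte markers, Mgst1 alone was detected (11.52 and 11.23), and the defining genes Mc5r, Awat2, Scd3, Krt79 and Fa2h were not. Of 8 endothelial markers, Egfl7 was detected on both arrays (8.97 and 9.77) and Flt1 on the knockout array only (5.13 and 7.17, at least 1.82-fold higher). A further Flt1 probe was not detected on either array (4.82 and 4.82). Of 6 macrophage markers, Cd14 alone was detected (7.55 and 6.81). The summed signal of the sebocyte list was 4072 and 3408, and that of the adipocyte list 1884 and 1812. These sums are mostly signal of undetected probes, and the part of such cells in the members' differences was not tested.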

How the data were processed

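The authors deposited 2 sets of intensity values for 25697 probes. The non-normalized table holds mean bead signal on a linear scale with a detection p-value per probe, per the file headers, and shows no background subtraction (lowest signals 133 and 139). The deposited value table has 1 shared distribution in both columns (median 199), and no source used here gives its method. The submitters' processing notes name GenomeStudio 2011.1.

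Signal was corrected and quantile normalized with neqc (offset 16, limma 3.58.1, R 4.3.3). The annotation gave 1 symbol for 23978 probes and none for 1719, and 23962 gene identifiers were found in the RefSeq gene table. Of several probes, the one with the highest mean of the 2 arrays stood for its gene. With 1 array per genotype no test between conditions was made, and a gene counted as higher or lower at 2-fold when detected on at least 1 array. The normalization was tested on simulated data with known changes in probes clearly above background. Changes in dim probes, detection on 1 array and the lower bounds were not tested in this way. The members, the 10 roles, the 7 further lipid lists and the 8 marker lists were chosen with earlier results of these data known. All members are accounted for. Of the further lists, genes past 2-fold are named, or the one with the largest difference, and up to 3 detected markers of each marker list. Alternatives were other background corrections, offsets, normalizations, detection limits, probe rules, thresholds of 1.5-fold and 3-fold, the deposited values and lower bounds.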

Additional observations from a re-analysis of the deposited data

How the results depend on the processing

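Each of the 28 detected members was recomputed under 8 alternatives, and of the 224 differences 184 moved by less than the spread between probes (0.31), 40 moved by more, and no difference of a member past 2-fold changed sign. The members' median difference stayed between 0.04 (detected on both arrays) and 0.25 (mean of detected probes). The count of members at least 2-fold higher was 7, and became 4 without background correction, with the deposited values, when both were required and at 3-fold, and 3 when detection on both arrays was required. The count of lower members was 3, and became 1 without background correction, with the deposited values and when both were required, 5 at 1.5-fold and 0 at 3-fold. It was 4 with the mean of detected probes and without normalization between arrays. With detection on both arrays, lower bounds or an offset of 50 it was 2. Removing the correction compresses the differences of dim probes by its construction. Among the other lipid genes, 7 higher became 4 without background correction, with the deposited values and with detection on both arrays, and 11 at 1.5-fold, while 3 lower became 1 with detection on both arrays and 9 at 1.5-fold. Shares of all genes are not given for the deposited values, the other thresholds or detection on both arrays. Counts under those settings therefore have no comparison. Requiring both corrections, and applying the alternatives to the other lipid genes, were chosen after seeing the data. With 1 array per genotype there was no replicate to leave out. No paired analysis was possible because each genotype has a single array and no result comes from a test. Depth here is signal over background, and members dimmer than the detection limit have only bounds.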
